A study of Rattus norvegicus with 12 samples.

Results

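Lif, Lifr, Osm, Osmr, Cntf, Cntfr, Clcf1, Stat3, Socs1 and Socs3 encode ligands, receptor chains, a transcription factor and feedback inhibitors of LIF, oncostatin M and CNTF receptor signalling. They were followed by symbol through the count table of 12 rat cortex libraries. Of the 10 genes, 9 had a row among the 17268 gene symbols of the table, and Clcf1 was not analysed here. The libraries came from 4 groups of 3 adult male Sprague Dawley rats, each rat giving 1 library. In the Sham group the operation was done and no clot was injected. Model rats received a blood clot in the middle cerebral artery, which is an embolic stroke. The rt-PA rats had the same stroke and then recombinant tissue plasminogen activator, the clot-dissolving drug, at 6 h. The rt-PA+Acu rats had the stroke, XNKQ acupuncture at the Shuigou and Neiguan points at 2 h, and rt-PA at 6 h. No group had acupuncture without rt-PA, so an effect of needling alone cannot be told apart from its combination with the drug. The time of tissue collection for sequencing, and the side and part of the cortex taken, were not given in the sources used here.

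LIF, oncostatin M and CNTF are cytokines of the interleukin 6 family. Their receptors combine the chains LIFR, OSMR and CNTFR in different ways with the shared chain gp130, encoded by Il6st. Janus kinases carried by gp130 phosphorylate STAT3. STAT3 then enters the nucleus and drives, among other genes, Socs3, whose product blocks the receptor and its kinases and so ends the signal. In the injured brain this pathway is known for reactive astrocytes, for the response of neurons to damage and for acute phase genes. Counts measure transcripts only, so phosphorylation of STAT3 was not measured.

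Because STAT3 binds DNA at a known core site, the start regions of the genes were searched for the STAT core site TTCNNNGAA, which reads the same on both strands. RefSeq promoter windows (assembly GRCr8) of 300 bases, from 250 before to 50 after a start, matched 6 of the 10 genes, namely Lifr, Osmr, Cntf, Stat3, Socs1 and Socs3. The windows of Lifr and Socs3 lie wholly inside the span of their genes, because a RefSeq start need not be the outermost one. A site occurred in 1 of the 6 windows, that of Socs1, or 16.7%, against 2970 of 33469 windows (8.87%) over all entries. Among other pathway genes, 1 of 21 matched genes held it (4.76%), namely Cish, a SOCS family inhibitor with 4 sites. Among genes known as STAT3 targets, 6 of 19 held it (31.6%), and Icam1, the endothelial adhesion molecule for leukocytes, was one of them. In these lists a gene counted if any of its windows held a site, while 8.87% is a share of windows. The list shares and that share are thus in unlike units. The 250 bases before the start are shown for Socs1, Cish and Icam1, with the sites in capitals, as examples that hold a site and were higher in Model. They were picked with that result known, and holding a site did not go with a rise in every gene. The targets Steap4 (log2 -0.51, adjusted p = 0.1723) and Bcl2l1 (log2 -0.15, adjusted p = 0.3634) held a site and were not called. Batf and Hamp, also with a site, were not tested, and Serpina3n had no row. Osmr, Stat3 and Socs3 were higher with no site in their windows. The sequences shown run 5′ to 3′ on the plus strand, at chr10:5389324-5389573 for Socs1, chr8:116850719-116850968 for Cish and chr8:27829595-27829844 for Icam1. The Socs1 site begins 196 bases before the start and the Icam1 site 107 bases before it.
Socs1: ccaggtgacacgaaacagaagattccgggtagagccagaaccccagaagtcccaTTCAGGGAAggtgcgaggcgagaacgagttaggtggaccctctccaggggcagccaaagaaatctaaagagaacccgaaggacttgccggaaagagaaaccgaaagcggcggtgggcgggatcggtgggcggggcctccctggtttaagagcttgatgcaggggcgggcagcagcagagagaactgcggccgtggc
Cish: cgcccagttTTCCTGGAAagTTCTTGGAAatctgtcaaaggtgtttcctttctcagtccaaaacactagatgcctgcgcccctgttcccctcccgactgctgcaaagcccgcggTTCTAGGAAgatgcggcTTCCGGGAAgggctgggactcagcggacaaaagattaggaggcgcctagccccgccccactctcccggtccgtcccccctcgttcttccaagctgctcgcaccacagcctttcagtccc
Icam1: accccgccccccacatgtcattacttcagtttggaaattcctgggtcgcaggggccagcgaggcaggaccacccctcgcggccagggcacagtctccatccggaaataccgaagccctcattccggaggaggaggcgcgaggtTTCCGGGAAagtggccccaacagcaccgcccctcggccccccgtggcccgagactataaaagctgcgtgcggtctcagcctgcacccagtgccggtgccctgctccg
A match describes letters in a window and is not a measured binding site.

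Each library held 11678450 to 13616935 counts, so 3 counts, the floor used here for detection, stood for 0.208 to 0.262 CPM (counts over library size, after TMM scaling, in the usual CPM unit). Model replicate 3 stood apart from the other injured libraries in the ribosomal gene Rpl39, with 142 counts, where the Sham libraries had 105 to 151 and the remaining 8 injured libraries 488 to 990. Markers of cortical neurons were present in every library, at a summed level of 3656 to 6299 CPM. These 8 markers summed to 4723 to 5525 CPM in Sham and 4574 to 4834 in Model. In rt-PA the sums were 3656 to 4598 CPM and in rt-PA+Acu 4203 to 6299. Markers of other cells differed between the groups too. The summed level of 6 monocyte and macrophage markers was 56.3 to 75.9 CPM in Sham (Ms4a7 at 0), 163 to 239 in Model, 241 to 447 in rt-PA and 32.03 to 48.1 in rt-PA+Acu. The 6 neutrophil markers summed to 7.26 to 11.8, 4.96 to 16.9, 14.8 to 81.5 and 3.66 to 5.24 CPM in the same order, with Mpo at 0 in every library and Mmp8 also at 0 in rt-PA+Acu. For astrocytes (6 markers, Gfap not among them), the sums were 3471 to 4176, 1603 to 1872, 1373 to 1912 and 2684 to 3536 CPM. Endothelial markers (4 of 6 genes) summed to 109 to 154, 188 to 344, 231 to 344 and 72 to 81.9 CPM. Oligodendrocyte markers (5 genes) summed to 11520 to 17360 CPM in Sham, 1561 to 8202 in Model, 2575 to 11050 in rt-PA and 3017 to 20390 in rt-PA+Acu. The 5 striatal markers summed to 225 to 521 CPM in Sham and 106 to 154 in the injured groups. The part of these shifts in the results that follow was not tested, and in bulk tissue fewer cells of a type and less RNA per cell cannot be told apart.

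After embolic stroke, the ligands Lif and Osm, the receptor chain Osmr, Stat3, Socs1 and Socs3 were higher and the receptor chain Cntfr was lower. Compared to Sham, 6 of the 9 members were higher in Model and 1 was lower, at an adjusted p under 0.05 and over 2-fold change in edgeR's quasi-likelihood test. Both conditions define a call throughout. The background over all genes was 21.5% called (2765 of 12884 tested), with 9.43% higher and 12% lower. For 8 of the 9 members the ranges of the groups did not overlap, against 63.6% of all genes. Of the 6 called higher, Lif, Osm and Socs1 had 10 counts in fewer than 3 Sham libraries and passed the filter on low counts through Model, where they were high, so this count is a description. Osmr, Stat3 and Socs3 had at least 10 counts in every library of both groups.

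Lif, the cytokine that signals through LIFR and gp130, had the largest change of the members. Its level was 0.806, 0.535 and 0 CPM in the Sham replicates (10, 7 and 0 counts) and 125, 72.4 and 31.9 CPM in the Model replicates (1640, 855 and 386 counts). Every Model library was far above every Sham library, though the Model libraries spread widely and replicate 3 was the lowest of them. The difference was 164-fold (log2 fold change 7.36, SE 0.73, adjusted p = 0.0001168). Lif passed the filter on low counts through its Model libraries, since only 1 Sham library reached 10 counts.

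Osm, oncostatin M, a cytokine made mainly by myeloid cells, stayed low in absolute terms. The Sham replicates had 0.483, 0.153 and 0.175 CPM and the Model replicates 2.06, 1.52 and 1.82 CPM, from 6, 2 and 2 counts and from 27, 18 and 22 counts. The groups did not overlap, and the difference was 6.49-fold (log2 fold change 2.698, SE 0.52, adjusted p = 0.002881). It too passed the filter through Model alone. Cntf, a neurotrophic cytokine of astrocytes, read 3.06, 2.98 and 3.93 CPM in Sham and 1.83, 3.39 and 5.04 in Model. These ranges overlapped, and the log2 difference was 0.04 (SE 0.38, adjusted p = 0.9302).

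The receptors split. Osmr, the oncostatin M receptor chain, was 7.17, 4.89 and 8.38 CPM in Sham and 55.7, 58.6 and 60.5 CPM in Model, a rise of 8.60-fold with little spread in Model (log2 fold change 3.11, SE 0.18, adjusted p = 1.45e-05). Lifr read 41.3, 35.0 and 43.3 CPM in Sham and 77.0, 71.7 and 52.4 in Model. It passed the p-value threshold without reaching the 2-fold limit (1.69-fold, log2 0.76, SE 0.16, adjusted p = 0.004324) and so was not called. Cntfr, the CNTF-binding chain, was the member that fell. Its Sham replicates had 43.5, 46.1 and 44.9 CPM and its Model replicates 19.4, 19.1 and 26.4 CPM, which was 2.06-fold lower (log2 fold change -1.05, SE 0.14, adjusted p = 0.0004756). This was close to the 2-fold limit: the log2 change was -0.98 without Model replicate 1, -0.96 without Model replicate 2 and -0.97 with scaling by library size alone, each under the limit.

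Stat3 and its feedback inhibitors rose. Stat3 measured 72.7, 78.7 and 89.9 CPM in Sham and 424, 420 and 349 CPM in Model, or 4.97-fold more (log2 fold change 2.31, SE 0.12, adjusted p = 8.252e-06). Socs3, the main feedback inhibitor of gp130 signalling, went from 3.95, 2.52 and 2.53 CPM to 178, 153 and 131 CPM. Its rise was 51.4-fold (log2 fold change 5.68, SE 0.21, adjusted p = 3.41e-06), and by p-value it was rank 7 of 12884 genes. Socs1, an inhibitor of Janus kinases, was scarce, at 0.967, 0.612 and 0.873 CPM in Sham and 2.83, 1.36 and 2.89 in Model. The groups did not overlap, and the difference was 2.89-fold (log2 fold change 1.53, SE 0.44, adjusted p = 0.01713). The Socs1 call was lost without Sham replicate 2 (adjusted p = 0.06952) or Model replicate 1 (adjusted p = 0.05377). In RefSeq, Socs1 overlaps the long noncoding gene LOC134480746, and whether counting used strand was not given. In the same comparison 4 of 5 oligodendrocyte, 5 of 6 astrocyte and 3 of 5 microglia markers were lower. So were 5 of 5 striatal and 2 of 8 neuron markers. Higher were 2 of 5 monocyte and macrophage, 1 of 4 neutrophil and 1 of 4 endothelial markers, and the 1 choroid plexus marker tested. The part of all these markers was not tested. Without Model replicate 3 all 7 of the members' calls remained, with log2 fold changes of 2.40 for Stat3 and -1.21 for Cntfr.

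**Figure D1:**
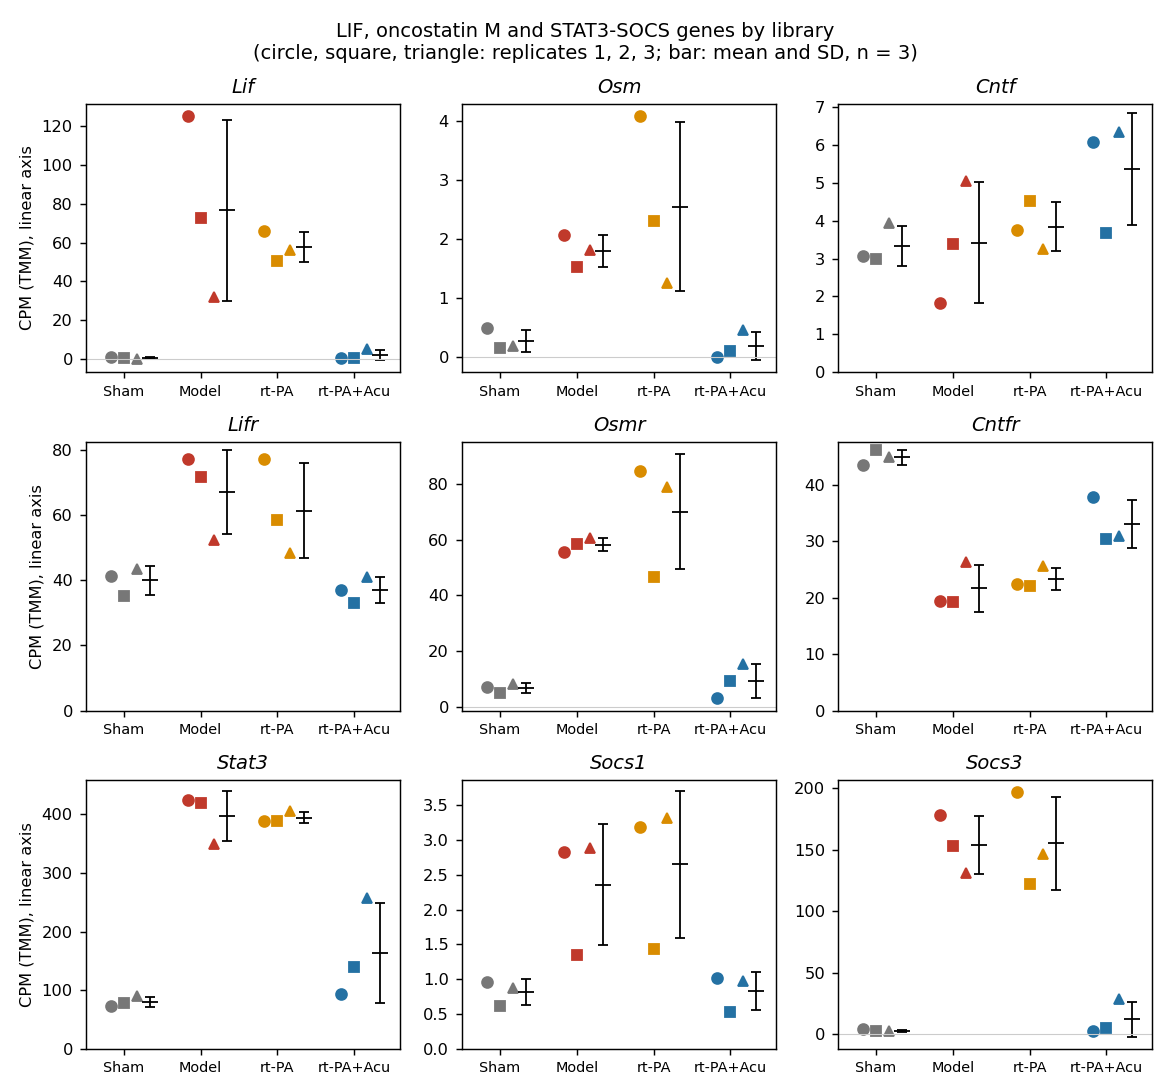
Each panel shows 1 gene in CPM on a linear axis for the 4 groups, with circle, square and triangle for replicates 1, 2 and 3 and a bar for the mean and SD (n = 3). For Socs3 the Model and rt-PA libraries sit between 122 and 197 CPM and the Sham libraries below 4, while rt-PA+Acu replicate 3 (triangle) is at 28.4.

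Delayed rt-PA did not shift these genes by an amount that could be told from the spread between rats. None of the 9 members was called in rt-PA against Model by edgeR (adjusted p from 0.7259 to 0.9933), none passed an unadjusted p under 0.05 with the fold limit, and DESeq2 called 0 of them. The background was 0% called by edgeR (0 of 12941 genes) and 1.86% at the unadjusted p with the fold limit, while DESeq2 called 82 genes. The ranges of the groups overlapped for all 9 members, whereas 15.9% of all genes did not overlap.

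The rt-PA levels of Lif were 65.9, 50.7 and 55.9 CPM, inside the range of Model. For Stat3 they were 388, 389 and 405 CPM, a log2 difference of -0.01. Socs3 read 197, 122 and 147 CPM, again around the Model values. Osm was the most variable, at 4.09, 2.30 and 1.25 CPM. Its highest library, rt-PA replicate 1, also had the highest summed neutrophil (81.5 CPM) and monocyte and macrophage (447 CPM) markers. That library was also the highest of its group in endothelial and fibroblast markers, and for Lif, Lifr, Osmr and Socs3. In neuron (3656 CPM), astrocyte (1373 CPM) and oligodendrocyte (2575 CPM) markers it was the lowest of its group. The part of all these markers was not tested. Without rt-PA replicate 1 the log2 difference of Osm went from 0.50 to -0.02. Osmr was 84.7, 46.6 and 78.9 CPM, Lifr 77.0, 58.5 and 48.4, Cntf 3.75, 4.53 and 3.25, Cntfr 22.4, 22.1 and 25.6, and Socs1 3.19, 1.44 and 3.32.

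With acupuncture before rt-PA, the members that had risen were lower again. Compared to rt-PA, 6 of the 9 members were lower in rt-PA+Acu and none was higher, where 15.3% of all genes were called (1993 of 12999), 8.16% lower and 7.17% higher. Ranges did not overlap for 8 of 9 members, against 51.1% of all genes. Of the 6, Lif, Osm and Socs1 had 10 counts in fewer than 3 rt-PA+Acu libraries and passed the filter through rt-PA, where they were high, so this count too is a description. Osmr, Stat3 and Socs3 did not depend on the filter in this way.

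Lif had 0.674, 0.436 and 5.00 CPM in the rt-PA+Acu replicates (8, 5 and 67 counts), all below the lowest rt-PA library. It was 27.0-fold lower than in rt-PA (log2 fold change -4.76, SE 0.68, adjusted p = 0.003171). Osm had 0, 0.0873 and 0.448 CPM, from 0, 1 and 6 counts, and was 13.0-fold lower (log2 fold change -3.70, SE 0.85, adjusted p = 0.01494). With so few counts the size of the Osm difference is poorly fixed, and its call was lost without rt-PA replicate 1 (adjusted p = 0.05313) or rt-PA+Acu replicate 2 (adjusted p = 0.06031). Cntf, at 6.07, 3.67 and 6.34 CPM, was not called (log2 0.48, SE 0.29, adjusted p = 0.2322).

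Among the receptors, Osmr fell to 3.12, 9.34 and 15.3 CPM, below all 3 rt-PA libraries (7.51-fold lower, log2 fold change -2.91, SE 0.50, adjusted p = 0.005811). Lifr, at 36.9, 33.0 and 40.9 CPM, lay below rt-PA without reaching the fold limit (log2 -0.73, SE 0.18, adjusted p = 0.02022). Cntfr lay above it, at 37.8, 30.3 and 30.8 CPM, again without reaching the limit (log2 0.50, SE 0.14, adjusted p = 0.02949).

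Stat3 read 92.6, 140 and 258 CPM in rt-PA+Acu, below every rt-PA library but spread over a wide range. It was 2.40-fold lower (log2 fold change -1.26, SE 0.33, adjusted p = 0.02338). That call depended on single rats: it was lost without rt-PA replicate 1 (adjusted p = 0.0599), rt-PA replicate 3 (0.06375) or rt-PA+Acu replicate 2 (0.0848), and without rt-PA+Acu replicate 1 the log2 change was -0.98. Socs3 had 2.78, 5.41 and 28.4 CPM and was 12.5-fold lower (log2 fold change -3.65, SE 0.75, adjusted p = 0.009922). Socs1 had 1.01, 0.524 and 0.970 CPM, 3.13-fold lower (log2 fold change -1.65, SE 0.47, adjusted p = 0.02994), a call lost on leaving out rt-PA replicate 1 or 3 or rt-PA+Acu replicate 1 or 2 (adjusted p 0.0654 to 0.1008). The count of members called was 3 without rt-PA replicate 1 and 3 without rt-PA+Acu replicate 2. Monocyte and macrophage markers were lower in the same comparison (5 of 5 tested), as were neutrophil (4 of 5) and endothelial markers (3 of 4). The 1 choroid plexus marker tested and 1 of 5 fibroblast markers were also lower. Higher were 4 of 6 astrocyte, 2 of 8 neuron and 2 of 5 microglia markers. The part of all these markers in the lower members was not tested.

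**Figure D2:**
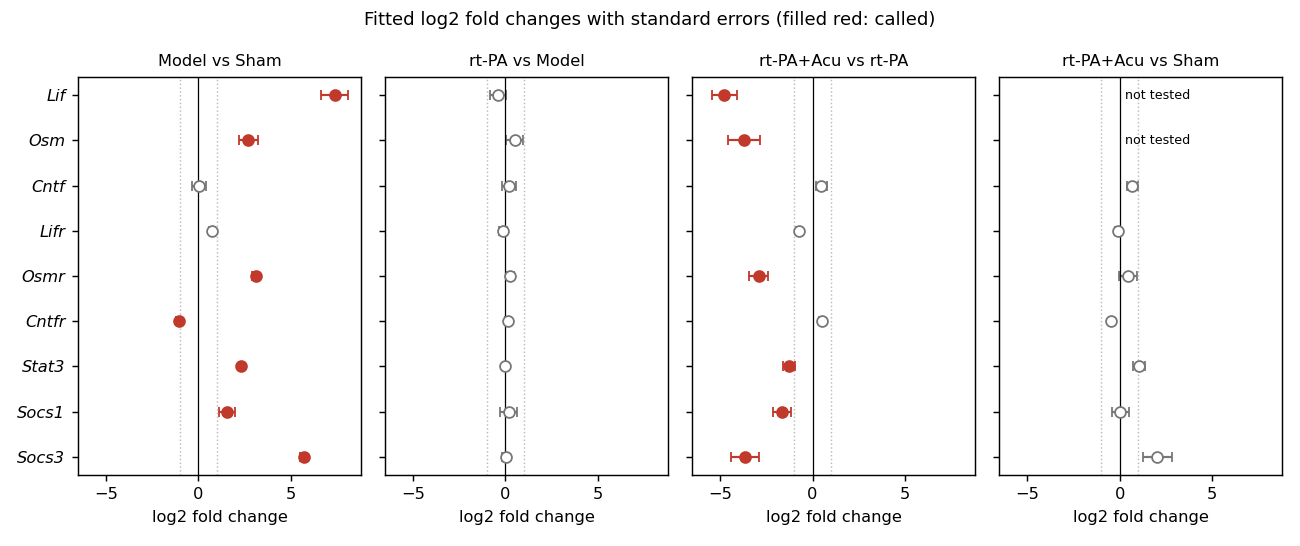
Fitted log2 fold change of each member (x axis) in 4 comparisons, with bars of 1 standard error, filled red where called and dotted lines at the 2-fold limit. The members called higher in Model against Sham lie left of 0 in rt-PA+Acu against rt-PA, from -1.26 for Stat3 to -4.76 for Lif.

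Differences between rt-PA+Acu and Sham were not detected for the members by edgeR. Against Sham, 0 of 7 tested members were called by edgeR, where 2.06% of all genes were called (263 of 12775). At an unadjusted p under 0.05 with the fold limit 2 passed (Stat3 and Socs3), beside 583 of 12775 genes. DESeq2 called 1 (Stat3), beside 426 of 15482 genes. Lif and Osm were left out by the filter, since at most 1 library of either group reached 10 counts. Only Stat3 and Cntfr had ranges apart from Sham, 2 of 7 (28.6%), which is near the 30.8% of all genes and is not a result about the members.

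Stat3 was 1.03 higher than Sham on the log2 scale (SE 0.33, adjusted p = 0.1122), and its adjusted p was 0.0129 in DESeq2 and 0.02372 without rt-PA+Acu replicate 1. Socs3 was 2.03 higher with a large error (SE 0.79, adjusted p = 0.1698). Cntfr was 0.45 lower on that scale (log2 -0.45, SE 0.12, adjusted p = 0.06601). Osmr (log2 0.45, adjusted p = 0.6224), Lifr (-0.11, adjusted p = 0.649), Cntf (0.69, adjusted p = 0.2037) and Socs1 (0.04, adjusted p = 0.9686) overlapped with Sham. A missed threshold does not show that these levels were equal. In the same comparison 5 of 5 striatal, 2 of 5 microglia, 1 of 4 monocyte and macrophage and 1 of 4 endothelial markers were lower. No tested marker was called higher, and the part of these markers was not tested.

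The rt-PA+Acu rats differed among themselves. Replicate 3 was the highest of the rt-PA+Acu rats for 7 of the 9 members. On a scale where the Sham mean of log2 CPM is 0% and the Model mean 100%, its Stat3 stood at 73.1%, Socs3 at 56.9%, Lif at 48.4% and Osmr at 38.2%. Replicates 1 and 2 stood at 9.07% and 35% for Stat3, -1.31% and 15.1% for Socs3, 11.5% and 4.66% for Lif, and -34.1% and 15.5% for Osmr. So each of these 4 members was well above the Sham mean in replicate 3 and at most 11.5% of the way to Model in replicate 1. The rat that stood furthest from the other two was not the same for every gene, since for Osmr replicate 1 was furthest and for Socs1 replicate 2 (-37.9%, with replicates 1 and 3 at 21.3% and 17.4%). Leaving replicate 3 out made the differences from rt-PA larger, with log2 fold changes of -6.66 for Lif, -5.24 for Socs3, -5.60 for Osm, -3.49 for Osmr and -1.75 for Stat3. The summed oligodendrocyte markers were 20390, 8400 and 3017 CPM in rt-PA+Acu replicates 1, 2 and 3, so replicate 3 was the lowest. It was also the lowest of its group in neuron (4203 CPM), astrocyte (2684 CPM), microglia and neutrophil markers. Its monocyte and macrophage (48.1 CPM) and endothelial (81.9 CPM) markers were the highest of the group. The part of all these markers in the differences between the rats was not tested. Leaving replicate 3 out brought the difference from Sham down to 0.44 for Socs3 and 0.52 for Stat3, and Osmr turned to -0.14.

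**Figure D3:**
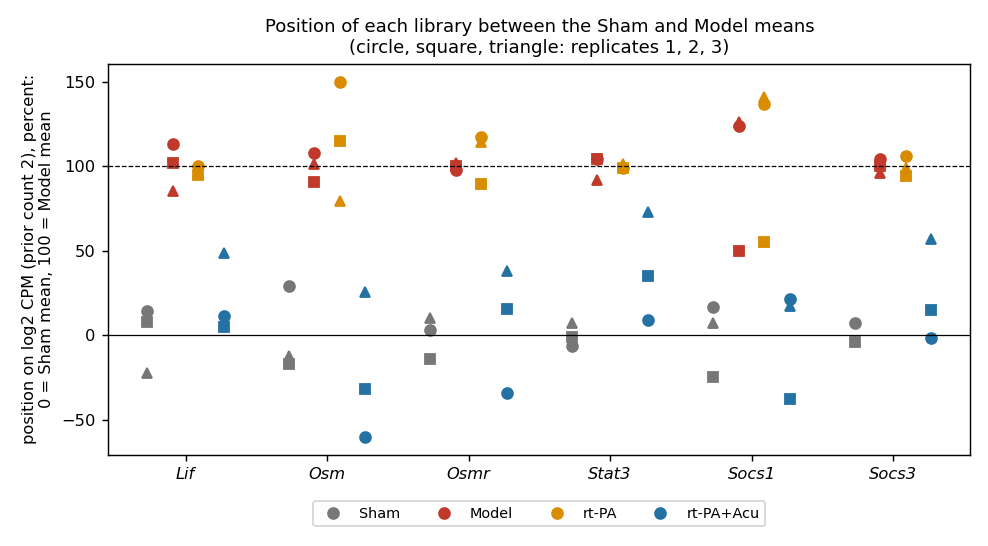
Position of every library between the Sham mean (0%) and the Model mean (100%) of log2 CPM for the 6 members called in both comparisons, coloured by group, with circle, square and triangle for replicates 1, 2 and 3. The rt-PA+Acu triangle lies highest of its group for 5 of these 6 genes, at 73.1% for Stat3.

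Against Model, rt-PA+Acu gave the same 6 members lower, where 14.5% of all genes were called (1866 of 12855) and 6.62% were lower. The log2 fold changes were -5.17 for Lif (adjusted p = 0.003818), -3.20 for Osm (0.01579), -2.64 for Osmr (0.004787), -1.28 for Stat3 (0.02143), -1.48 for Socs1 (0.04137) and -3.64 for Socs3 (0.008315). This comparison shares its libraries with those above and is no separate evidence. Without rt-PA+Acu replicate 2, 3 members were called, and Stat3 lost its call in 4, Socs1 in 5 and Osm in 1 of the 6 fits that omitted a rat. Lifr, at log2 -0.86, was called only without Model replicate 3 (log2 -1.01, adjusted p = 0.004284). By group mean, Lif and Stat3 ran from Sham through rt-PA+Acu and rt-PA to Model, and Osmr, Socs1 and Socs3 from Sham through rt-PA+Acu and Model to rt-PA. Osm and Lifr were lowest in rt-PA+Acu and Cntfr was lowest in Model, and Cntf was highest in rt-PA+Acu. Model and rt-PA overlapped for all 9 members, and Sham and rt-PA+Acu for all but Stat3 and Cntfr.

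Among the other genes of the pathway, the cytokines Il11 and Il6 had the largest rises in Model. Of 28 in the table (30 listed), 9 were called against Sham (32.1%, beside 21.5% of all genes), 8 higher and 1 lower, with a median log2 fold change of 0.41 (0.01 over all genes). Il11, a gp130 cytokine, had 0 counts in every Sham library and 83.4, 57.3 and 15.9 CPM in Model, at least 214-fold higher against a floor of 3 counts per library (adjusted p = 0.0006141). Il6, the cytokine that gives the family its name, went from 1.05, 0.841 and 0.262 CPM to 2.60, 6.43 and 17.1 CPM (log2 3.57, SE 0.75, adjusted p = 0.004391). Its Model libraries ranged widely, and without the highest, replicate 3, the log2 difference was 2.62. Ctf1, cardiotrophin 1, another ligand of LIFR, fell from a mean of 3.07 CPM to 0.758 (log2 -1.997, adjusted p = 0.002649). Il11 and Il6 (13, 11 and 3 counts in Sham) passed the filter on low counts through Model, where they were high. Ctf1 (10, 12 and 6 counts in Model) passed it through Sham, where it was high. The count of pathway genes called is therefore a description.

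Downstream, Stat5a rose from a mean of 3.28 to 32.6 CPM (log2 3.32, adjusted p = 3.414e-05). Jak2 and Jak1, kinases bound to gp130, rose by log2 1.89 (adjusted p = 7.666e-05) and 1.15 (adjusted p = 7.952e-05). Il6st itself passed the p-value threshold below the fold limit (log2 0.80, SE 0.08, adjusted p = 0.000105). The inhibitors Cish (log2 1.79, adjusted p = 0.009856) and Ptpn2, a phosphatase of Janus kinases and STATs (log2 1.62, adjusted p = 7.074e-05), were higher, and Il6r was the remaining gene called.

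In rt-PA against Model 0 of these 28 were called, also at the unadjusted p with the fold limit. In rt-PA+Acu against rt-PA, 7 of 28 were lower (25%, beside 8.16% of all genes) and none higher, with a median of -0.31. Il11 read 55.2, 42.5 and 21.8 CPM in rt-PA and 0, 0 and 1.12 in rt-PA+Acu (log2 -6.59, adjusted p = 0.002105), and its 1 detected library was replicate 3. Il6 read 19.8, 19.3 and 8.998 CPM in rt-PA and 0.253, 0.349 and 1.64 in rt-PA+Acu (log2 -4.35, adjusted p = 0.00324). Il11 and Il6 passed the filter on low counts through rt-PA, where they were high, so the count of 7 is a description. Stat5a (log2 -2.47), Il6r (-1.28), Stat6 (-1.22), Jak2 (-1.19) and Ptpn2 (-1.10) were the others. The Stat6 call was lost without rt-PA+Acu replicate 3 (log2 -0.96) and that of Ptpn2 without rt-PA+Acu replicate 1 (log2 -0.95). Il6st (log2 -0.95, adjusted p = 0.004725) and Jak1 (-0.63, adjusted p = 0.01088) stayed under the fold limit. Against Sham, 0 of 27 tested were called by edgeR, beside 263 of 12775 genes. At an unadjusted p with the fold limit 1 passed, beside 583 of 12775 genes, and DESeq2 called 1, beside 426 of 15482 genes.

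Genes known as STAT3 targets included some that were lower again in rt-PA+Acu and some that were not. Of 22 in the table (24 listed), 20 were tested, and 12 were higher in Model than in Sham (60%, beside 9.43% of all genes) and none lower, with a median log2 fold change of 1.66. Timp1, an inhibitor of matrix proteases, rose by log2 6.76 (adjusted p = 7.788e-06) and Icam1 by 3.91 (adjusted p = 4.312e-06). Lcn2, an iron-binding acute phase protein, rose by log2 3.45 (adjusted p = 0.0003612), and Gfap, the filament of reactive astrocytes, by 3.10 (adjusted p = 1.214e-05). Bcl3 (log2 3.00), Cebpd (2.73), Il4r (2.15) and Pim1 (2.03) followed. Bcl3 had 6, 18 and 10 counts in Sham and passed the filter on low counts through Model, where it was high. The targets were also listed with earlier results of these data known, so the count of 12 is a description. In rt-PA against Model 0 of 20 were called by edgeR and 2 at the unadjusted p with the fold limit, beside 1.86% of all genes.

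In rt-PA+Acu against rt-PA, 11 of the 20 targets were lower (55%, beside 8.16% of all genes) and none was higher, with a median of -1.42. Icam1 went from 54.4, 40.5 and 58.2 CPM to 3.12, 3.75 and 6.64 CPM (log2 -3.49, SE 0.30, adjusted p = 0.001044), which overlapped with the 4.11, 4.66 and 3.41 CPM of Sham. Timp1 (log2 -3.43), Lrg1 (-2.47), Il4r (-2.27), Bcl3 (-2.20), Cebpb (-1.87), Pim1 (-1.80) and Cebpd (-1.57) were also lower. The number called was 7 without rt-PA replicate 1, 7 without rt-PA+Acu replicate 1 and 6 without rt-PA+Acu replicate 2. Bcl3 lost its call in 5 of those single-rat fits, Pim1 in 4, and Cebpb and Cebpd in 1 each. With 6, 12 and 59 counts in rt-PA+Acu, Bcl3 passed the filter on low counts through rt-PA, where it was high. For this reason, and because of how the list was chosen, the count of 11 is a description too.

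Gfap did not follow the members. It read 397, 414 and 363 CPM in Sham, 2485, 4085 and 3456 in Model, 3215, 3121 and 3426 in rt-PA and 2189, 2184 and 4378 in rt-PA+Acu. All 9 injured libraries were above Sham, and rt-PA+Acu overlapped with rt-PA (log2 -0.15, SE 0.28, adjusted p = 0.5995). Against Sham, Gfap was 2.90 higher in rt-PA+Acu on the log2 scale (SE 0.29, adjusted p = 0.003144), and this call held in each of the 6 fits that left out 1 rat.

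Lcn2, A2m and Serping1 were also not called in rt-PA+Acu against rt-PA, though their levels were less even than those of Gfap. Mean levels, from Sham through Model and rt-PA to rt-PA+Acu, were 1.53, 16.9, 30.1 and 23.5 CPM for Lcn2, whose rt-PA+Acu libraries ranged from 6.24 to 45.8 CPM. For A2m they were 7.25, 21.1, 45.4 and 42.2 CPM, with Model below both treated groups. For Serping1 they were 4.24, 14.5, 24.5 and 18.6 CPM. A2m, the protease inhibitor alpha-2-macroglobulin, and Serping1, the C1 complement inhibitor, were named after their values were seen. In all, 5 of 20 targets were higher in rt-PA+Acu than in Sham, where 0.916% of all genes were: Lcn2 (log2 3.93, adjusted p = 0.0268), Timp1 (3.89, adjusted p = 0.008845), Gfap, A2m (2.55, adjusted p = 0.01257) and Serping1 (2.14, adjusted p = 0.01573). As the list was chosen with earlier results known, this count of 5 is likewise a description. Without Sham replicate 2 Gfap alone was called (1 of 20), and without Sham replicate 1 the count was 3. Lcn2 lost its call without Sham replicate 1, 2 or 3 or rt-PA+Acu replicate 2 (adjusted p 0.05827 to 0.1384). Timp1 stood between, at 23.3, 13.9 and 56.3 CPM in rt-PA+Acu against 2.01 to 2.18 in Sham and 139 to 469 in rt-PA.

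**Figure D4:**
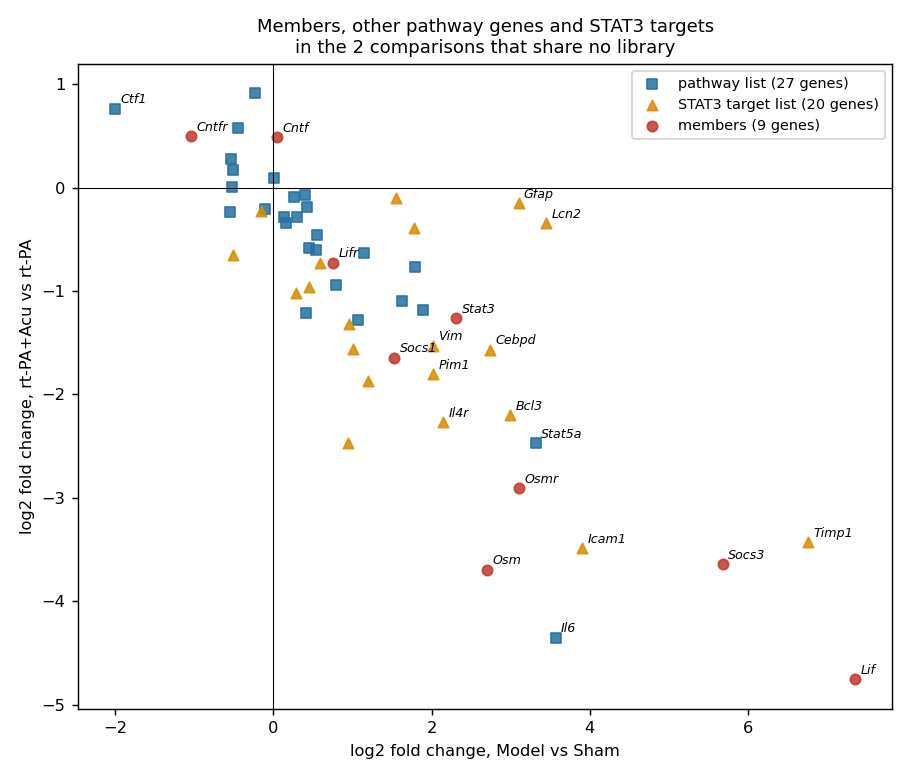
Log2 fold change in Model against Sham (x axis) and in rt-PA+Acu against rt-PA (y axis) for 9 members, 27 other pathway genes and 20 STAT3 targets, with Il11 left out because it had 0 counts in Sham. Lif, Socs3 and Icam1 lie at the lower right, while Gfap and Lcn2 lie at the right near 0 on the y axis (-0.15 and -0.35).

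Model against Sham and rt-PA+Acu against rt-PA share no library. Of the members, 6 were called in both, each in opposite directions, and 8 of 9 had opposite signs. The same was seen for 6 of 6 pathway genes and 8 of 8 STAT3 targets called in both. Opposite signs were also the rule over all genes (81.6% of 12753, and 1447 of the 1449 called in both), so the members shared this with most genes.

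Many genes shared the members' profile over the 12 libraries. The nearest to Socs3 by Pearson r of log2 CPM were Aen (0.995), Odc1 (0.994), Lrrc59 (0.993), B4galt5 (0.993) and Heatr3 (0.992), out of 13298 genes. Nearest to Stat3 were Kpnb1 (0.989), Ccl2 (0.989), Rnh1 (0.989), Rnf149 (0.989) and Mmp12 (0.987). For Osmr they were Arf4 (0.987), Palldl1 (0.983), Tgfb3 (0.982), Riok1 (0.982) and Ecm1 (0.982). An r over 0.9 was found for 1337, 1124 and 954 genes with Socs3, Stat3 and Osmr. Among the members, r was 0.981 for Socs3 with Stat3, 0.979 for Lif with Socs3 and -0.947 for Cntfr with Stat3. These values describe 12 libraries that share the differences between the 4 groups, and carry no test.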

How the data were processed

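The authors sequenced polyA-selected mRNA as read pairs with a strand-marking kit and deposited raw counts per gene symbol. Reads were aligned to mRatBN7.2 with STAR (2.7.10a in the submitters' processing notes), and per the study's methods Salmon 1.9.0 counted uniquely mapped read pairs on Ensembl genes. The processing notes also list featureCounts 2.0.1, with no role. Whether strand or molecular identifiers were used was not given in the sources used here.

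Counts were scaled with TMM in edgeR 4.0.16 (R 4.3.3), filtered with filterByExpr and tested with edgeR's two-sided quasi-likelihood test over the 6 libraries of each pair of groups, with Benjamini-Hochberg adjustment over all genes tested. SE was the log2 fold change over the root of F. DESeq2 1.42.0, other scalings, filters, a replicate block, a joint fit and leaving out each rat were alternatives. The scripts were checked on simulated data. The 12 totals bound precision through counting error. Each edgeR p-value sets a group difference against the spread between 3 rats per group, which edgeR moderates with that of other genes.

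The members and gene lists were chosen with earlier results of these data known. Named list genes were up to 8 called per list with the largest log2 fold change in Model against Sham and in rt-PA+Acu against rt-PA, plus Il6st, Jak1 and Jak2, and the 5 nearest profiles. Sequences, their coordinates, gene spans and gene overlaps came from RefSeq (GRCr8), a different assembly from that of the counts. Clcf1, some list genes and 4 red blood cell markers were not analysed here. Summed marker levels not given in the report were computed for fibroblasts (26.9 to 308 CPM), microglia (279 to 442 CPM) and choroid plexus (0.253 to 16.5 CPM).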

Additional observations from a re-analysis of the deposited data

How the results depend on the processing

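Of 225 counts of calls under an alternative, 196 were within 1.5 times the reported count. Requiring 10 counts in every library left 6 members to test, and 4 were called in Model against Sham, 3 in rt-PA+Acu against rt-PA and 3 against Model, where 3 pathway genes were called. With no fold limit the pathway genes called were 18 in Model against Sham, 13 in rt-PA+Acu against rt-PA, 1 against Sham and 11 against Model. Over all genes these were 6951, 4522, 651 and 4411. At an unadjusted p, 2 STAT3 targets were called in rt-PA against Model, 9 in rt-PA+Acu against Sham (with 2 members and 1 pathway gene) and 10 against Model. Over all genes that setting gave 241 of 12941, 583 of 12775 and 2090 of 12855 in the same order. DESeq2 called 1 member, 1 pathway gene and 8 targets in rt-PA+Acu against Sham and 10 targets against Model. Over all genes, DESeq2 called 82 in rt-PA against Model (edgeR 0) and 426 in rt-PA+Acu against Sham (edgeR 263), where leaving out 1 rat gave 82 to 359.

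Leaving out 1 rat, which lets 2 rats stand for a group, gave 5 to 7 members, 8 to 9 pathway genes and 11 to 13 targets in Model against Sham, and 0 to 0 of each in rt-PA against Model. In rt-PA+Acu against rt-PA these were 3 to 6, 6 to 9 and 6 to 12, against Sham 0 to 1, 0 to 0 and 1 to 6, and against Model 3 to 6, 3 to 5 and 3 to 9. The lowest counts in rt-PA+Acu against Model came without replicate 2 of rt-PA+Acu (and, for pathway genes, also replicate 1).

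Signs turned only for log2 differences that were not called. Leaving out 1 rat moved Cntf in Model against Sham between -0.34 and 0.35. In rt-PA against Model the ranges were -0.79 to 0.14 for Lif, -0.33 to 0.0056 for Lifr, -0.022 to 0.81 for Osm, -0.13 to 0.56 for Cntf, -0.10 to 0.036 for Stat3, -0.11 to 0.46 for Socs1 and -0.20 to 0.16 for Socs3. Library size alone gave 0.0398 for Stat3. In rt-PA+Acu against Sham they were -0.14 to 0.87 for Osmr and -0.14 to 0.28 for Socs1. The cause was not tested.

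Groups share replicate numbers. Same-numbered libraries did not deviate together (r from -0.25 to 0.15 over 18 pairs, beside -0.20 to 0.23 over 36 other pairs). Of 12 libraries, 2 correlated best with their own number. No pairing of the rats by number was seen, though this check cannot exclude it. With a replicate block, 2756, 0, 1862, 194 and 1501 genes were called in Model against Sham, rt-PA against Model, and rt-PA+Acu against rt-PA, Sham and Model. The block turned Cntf in Model against Sham to -0.0318 and Socs3 in rt-PA against Model to -0.0035. Of the genes named, Osm and Socs1 in rt-PA+Acu against Model, Bcl3 against rt-PA and Lcn2 against Sham were not called with it. Depth limits Osm, Socs1 and Lif, which had 12 counts or fewer in every Sham library.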
